A study of Mus musculus with 9 samples.

Results

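The transcripts described here encode components and regulators of the complement system: the proteases C1ra and C1s1, the central proteins C4b and C3, the alternative pathway protease Cfb, the soluble regulators Cfi and Serping1, and the membrane regulators Cd55 and Cd59a. They were listed by name, and 8 of the 9 were among the 13081 genes of the table. Cfi, the protease that cleaves C3b and C4b, was not among the genes of the table. Kidney RNA of wild-type mice was profiled at 3 months of age (young, n = 4) and at 16 months (old, n = 5), with no treatment and no mutation in either group, to ask which transcripts differ with age. Each library is labelled as a separate sample, but the labels do not say that each is a separate animal, so p-values measure the spread between these libraries. The library titles carry a prefix that follows age, so any difference of cohort, preparation or sequencing between the prefixes cannot be told apart from age.

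Complement is a cascade of plasma and cell surface proteins that marks targets for uptake and can pierce their membranes. The classical pathway starts when C1q activates C1r and then C1s, which cleave C4 and C2 to form an enzyme that splits C3. The alternative pathway amplifies deposited C3b through factor B, and host cells are spared by regulators in the fluid and on their membranes. The liver makes most of the circulating proteins, while the kidney also transcribes several of them and is a frequent site of complement deposition.

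Libraries held 5093029 to 6355095 reads in young kidneys and 4486406 to 5794960 in old kidneys, counted over all 13081 genes of the table. Mitochondrial transcripts took 27.0 to 29.7% of the young reads and 35.8 to 38.1% of the old reads. Markers of the nephron, Lrp2 and Slc34a1 of the proximal tubule, Umod of the thick ascending limb and Aqp2 of the collecting duct, were all in the table. Levels below are normalised counts, that is, reads divided by a size factor for each library. Differences are old minus young on the scale of log2(normalised count + 1), which understates the change of low genes. A gene is called higher or lower where limma gave an adjusted p under 0.05 over all genes tested.

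Of the 8 transcripts, C1ra, C4b and C3 rose in old kidneys, C1s1, Cfb and Cd59a fell, and Serping1 and Cd55 did not pass the test. The 6 called of 8 stand beside 59.7% called among all 12667 genes tested, 29.2% higher and 30.5% lower. In 5 of the 8 the young and old libraries did not overlap, against 49.0% of all genes. The median difference of the 8 was 0.15 and their median absolute difference was 0.75, against 0.00 and 0.56 over all genes. A count near the background is no result about complement as a group, and the values below are those of single genes. In whole kidney RNA, fewer cells of a type and less RNA per cell cannot be told apart.

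**Figure D1:**
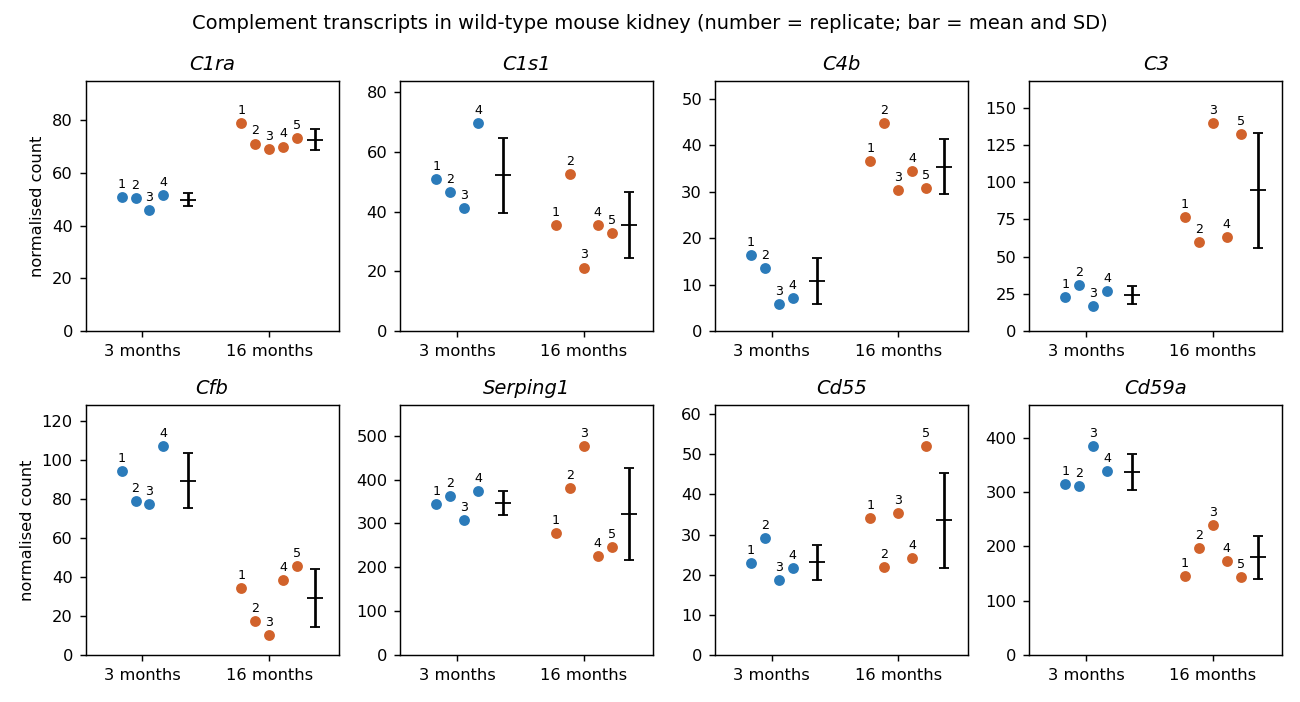
Normalised count of each of 8 complement transcripts (vertical axes, starting at 0) in the 4 young libraries (3 months, blue) and the 5 old libraries (16 months, orange); small numbers are the replicates and the black bars show mean and SD. C4b, C3 and C1ra lie higher in every old library than in any young one, Cfb and Cd59a lie lower in every old library, and C1s1, Serping1 and Cd55 overlap.

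C3 is the protein on which all complement pathways converge, and its cleavage yields the opsonin C3b and the peptide C3a. C3 was measured at 22.9, 31.1, 16.7 and 27.2 normalised counts in young replicates 1 to 4. In old replicates 1 to 5 it was at 76.6, 60.2, 140.0, 63.4 and 133. Every old library lay above every young one, and old replicates 3 and 5 stood highest. The mean rose from 24.5 ± 6.17 (SD, n = 4) to 94.6 ± 38.7 (SD, n = 5), a ratio of 3.87, with a log2 difference of 1.85 (SE 0.26, limma adjusted p = 6.7e-06). Only 5.84% of the genes tested had a larger absolute difference. The counts behind these values were 17 to 32 reads in young and 55 to 138 reads in old libraries.

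C4b encodes complement C4, which is cleaved by C1s and binds covalently to surfaces. Its level was 16.4, 13.6, 5.88 and 7.24 in young replicates 1 to 4. It was 36.5, 44.8, 30.4, 34.5 and 30.8 in old replicates 1 to 5. The lowest old library was above the highest young one. C4b rose from 10.8 ± 5.03 to 35.4 ± 5.87 (SD, n = 4 and 5), a ratio of 3.29 and a log2 difference of 1.72 (SE 0.30, limma adjusted p = 6.7e-05). The young values rest on 6 to 20 reads. Of the 50-base sequences in the last 500 bases of its transcripts, 38.1% also occur in another gene, most in its near-identical neighbour C4a, so the split of reads between them is uncertain.

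C1r and C1s are the serine proteases of the first complement complex, in which C1r activates C1s, and their genes lie near each other on chromosome 6. Their transcripts differed in opposite directions with age. C1ra was at 50.8, 50.5, 46.1 and 51.6 in young replicates and at 79.0, 71.1, 69.0, 70.0 and 73.2 in old replicates. The ages did not overlap, and the coefficient of variation was 5.00% in young and 5.49% in old libraries. The counts behind these values were 47 to 62 reads in young and 65 to 75 reads in old libraries. Counting error alone would give a wider spread at such counts, so the narrow spread is not read as a property of C1ra. C1ra rose from 49.7 ± 2.49 to 72.4 ± 3.98 (SD, n = 4 and 5), a ratio of 1.46 and a log2 difference of 0.53 (SE 0.15, limma adjusted p = 0.0054).

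C1s1 was at 50.8, 46.6, 41.2 and 69.7 in young replicates and at 35.4, 52.5, 21.3, 35.4 and 32.9 in old replicates. Here 4 of the 5 old libraries were below all young ones, while old replicate 2 lay among them. C1s1 fell from 52.1 ± 12.4 to 35.5 ± 11.2 (SD, n = 4 and 5), with a log2 difference of -0.57 (SE 0.24, limma adjusted p = 0.0477). This call is marginal: it was lost in 12 of 20 alternatives, over which the adjusted p ran from 0.012 to 0.180. It was lost at about the same difference with edgeR (-0.55, adjusted p = 0.0501) and DESeq2 (-0.56, adjusted p = 0.0524). It was lost at a smaller difference with mitochondrial genes left out (-0.43, limma adjusted p = 0.127) or a length trend removed (-0.44, limma adjusted p = 0.119). It was also lost without young replicate 1 (0.0854), 2 (0.0651) or 4 (0.180), and without old replicate 1 (0.0626), 3 (0.121), 4 (0.0621) or 5 (0.0696), each value being limma's adjusted p. In these the difference ran from -0.61 without young replicate 2 to -0.40 without old replicate 3. The reads of C1ra and C1s1 compared within a library gave a ratio of 0.740 to 1.12 in young and of 1.35 to 3.24 in old libraries, values that are not corrected for transcript length. Shared 50-base sequences made up 19.1% of the transcript ends of C1ra, most with C1rb, and 26.6% of those of C1s1, most with C1s2, and neither homologue was among the genes of the table.

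Cfb encodes factor B, which binds C3b and supplies the protease of the alternative pathway convertase. Cfb was at 94.2, 78.7, 77.5 and 107 in young replicates and at 34.2, 17.5, 10.1, 38.2 and 45.6 in old replicates. All old libraries were below all young ones, and old replicate 3, where C3 was highest, had the lowest Cfb. The mean fell from 89.3 ± 13.9 to 29.1 ± 14.8 (SD, n = 4 and 5), so that young kidneys had 3.06 times the old level, with a log2 difference of -1.75 (SE 0.32, limma adjusted p = 1.24e-04). The reads numbered 79 to 118 in young and 10 to 43 in old libraries. C3, which factor B binds, and Cfb therefore differed in opposite directions: the ratio of C3 reads to Cfb reads was 0.215 to 0.395 in young and 1.66 to 13.8 in old libraries. In GENCODE vM21 the gene Gm20547 spans Cfb and its neighbour C2 on the same strand and holds 64.2% of the 50-base sequences at the ends of Cfb transcripts. Gm20547 itself had no row in the table, and how reads in such overlaps were assigned is not given in the sources used here.

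Serping1 encodes the C1 inhibitor, which inactivates C1r and C1s. Serping1 was at 345, 361, 309 and 373 in young replicates and at 278, 382, 476, 226 and 247 in old replicates. The old libraries spread to both sides of the young ones. The coefficient of variation was 8.06% in young and 32.6% in old libraries. The log2 difference was -0.16 (95% interval -0.52 to 0.19, limma adjusted p = 0.423), so a change of up to these bounds in either direction could not be told from none. With 1 library left out, it ran from -0.32 without old replicate 3 (limma adjusted p = 0.061) to -0.05 without old replicate 4 (limma adjusted p = 0.811). With a length trend removed it was at 0.11 (limma adjusted p = 0.610).

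Cd55, the decay-accelerating factor that breaks up C3 convertases on host membranes, was at 22.9, 29.1, 18.6 and 21.7 in young replicates and at 34.2, 21.9, 35.5, 24.3 and 52.0 in old replicates. In old replicates 2 and 4 it lay within the young range, and in old replicates 1, 3 and 5 above it. The log2 difference was 0.47 (95% interval -0.08 to 1.02, limma adjusted p = 0.130), on 19 to 49 reads a library. With 1 library left out, it ran from 0.30 without old replicate 5 (limma adjusted p = 0.324) to 0.60 without old replicate 2 (limma adjusted p = 0.053). With mitochondrial genes left out it was at 0.61 (limma adjusted p = 0.055).

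Cd59a encodes the membrane-anchored inhibitor of the terminal attack complex. Cd59a was at 314, 311, 384 and 339 in young replicates and at 146, 197, 240.35, 173 and 144 in old replicates. No old library reached the lowest young one. Cd59a fell from 337 ± 33.8 to 180.05 ± 40.0 (SD, n = 4 and 5), so that young kidneys had 1.87 times the old level, with a log2 difference of -0.92 (SE 0.14, limma adjusted p = 1.8e-05). Its last 500 bases share no 50-base sequence with another gene. The membrane regulators thus differed: Cd59a fell, while Cd55 had a positive estimate that did not pass the test, and the difference between them was not tested.

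**Figure D2:**
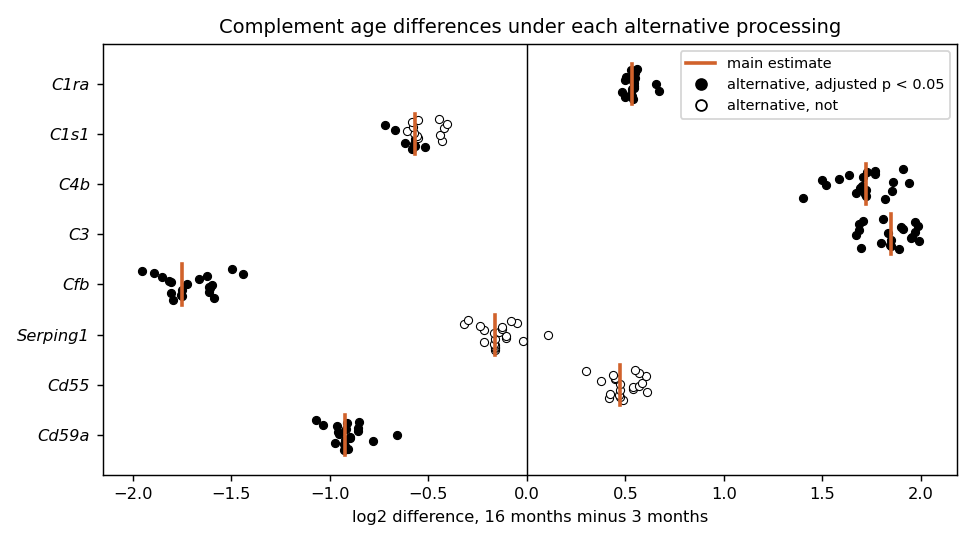
Log2 difference, 16 months minus 3 months (horizontal axis), of each of 8 complement transcripts. The orange bar is the estimate reported here and each circle is an alternative processing, filled where its adjusted p was under 0.05. C1ra, C4b, C3, Cfb and Cd59a are filled throughout, C1s1 is open in 12 of 20 alternatives, and Serping1 lies on the other side of 0 in 1.

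RefSeq promoter sequences on GRCm38.p6, covering 250 bases before to 50 bases after a transcription start, matched 5 of the 9 genes by symbol: C1ra, C1s1, C3, Cd55 and Cd59a. Those of the 4 called genes among them are printed to show the letters found in a search of both strands for 4 motifs: the NF-kappaB consensus, TTCNNNGAA (bound by STAT factors), GAAANNGAA (bound by interferon regulatory factors) and TTGCNNAA (bound by C/EBP factors). C1s1 has 2 entries, of which the first listed is shown. Capitals mark the matches, which do not overlap each other.
C1ra (chr6:124512371-124512670, plus strand): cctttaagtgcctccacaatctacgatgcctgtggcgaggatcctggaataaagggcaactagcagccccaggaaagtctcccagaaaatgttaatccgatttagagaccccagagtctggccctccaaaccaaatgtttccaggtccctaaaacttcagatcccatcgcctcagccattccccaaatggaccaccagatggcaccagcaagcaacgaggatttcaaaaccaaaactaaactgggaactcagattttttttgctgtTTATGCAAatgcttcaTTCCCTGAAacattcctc
C1s1 (chr6:124542310-124542609, minus strand): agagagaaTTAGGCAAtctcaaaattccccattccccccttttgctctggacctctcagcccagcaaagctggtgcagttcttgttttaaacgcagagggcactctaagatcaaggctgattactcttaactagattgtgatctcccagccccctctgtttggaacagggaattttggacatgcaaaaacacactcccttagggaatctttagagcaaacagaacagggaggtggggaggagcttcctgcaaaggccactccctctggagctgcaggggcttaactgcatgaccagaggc
C3 (chr17:57228087-57228386, minus strand): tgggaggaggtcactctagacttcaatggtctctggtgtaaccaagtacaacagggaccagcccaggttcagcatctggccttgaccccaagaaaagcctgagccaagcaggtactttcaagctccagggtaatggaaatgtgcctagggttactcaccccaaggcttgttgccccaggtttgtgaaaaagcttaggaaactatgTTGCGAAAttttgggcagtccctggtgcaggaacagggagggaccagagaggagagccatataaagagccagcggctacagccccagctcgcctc
Cd59a (chr2:104095551-104095850, plus strand): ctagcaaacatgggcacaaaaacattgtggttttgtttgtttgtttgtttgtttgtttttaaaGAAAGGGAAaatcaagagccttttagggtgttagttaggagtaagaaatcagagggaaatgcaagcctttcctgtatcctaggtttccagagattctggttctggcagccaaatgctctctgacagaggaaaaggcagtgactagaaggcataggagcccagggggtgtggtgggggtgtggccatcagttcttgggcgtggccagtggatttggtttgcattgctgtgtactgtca
C3 held TTGCNNAA from 45 to 38 bases before the start, and C1s1 held it on the opposite strand from 242 to 235 bases before the start, in the entry shown only. C1ra held it on the opposite strand at bases 16 to 23 and TTCNNNGAA at bases 32 to 40 after the RefSeq start. The C1ra window begins at 124512371, but GENCODE vM21 begins the gene at 124512405. By that annotation both matches and most of the C1ra window lie inside the gene. Cd59a held GAAANNGAA from 187 to 179 bases before the start. The NF-kappaB consensus had no match in the 5 genes, and Cd55 held none of the 4 motifs in this window. Over 32851 RefSeq promoters of the same length, 8.46% held the NF-kappaB consensus, 8.30% TTCNNNGAA, 8.56% GAAANNGAA and 10.8% TTGCNNAA. A match is a description of letters and not of binding. On GRCm38 in GENCODE vM21 the genes themselves lie at chr6:124512405-124523443 (C1ra), chr6:124530345-124542359 (C1s1), chr17:57203970-57228136 (C3), chr17:34728380-34743882 (C4b), chr17:34856374-34862518 (Cfb), chr2:84765387-84775444 (Serping1), chr1:130439027-130462744 (Cd55) and chr2:104095801-104115354 (Cd59a), and all are protein coding.

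The rest of the complement system was read from a list of 51 further genes, of which 26 were in the table and 24 were tested. Of these, 9 were higher in old kidneys, 4 were lower and 11 did not pass the test, beside 29.2% of all genes called higher and 30.5% lower. In 11 of the 24 the ages did not overlap, against 49.0% of all genes. Rescaling without mitochondrial genes gave 12 higher and 3 lower, and over all 12633 genes then tested it gave 4472 higher and 3173 lower. The median log2 difference of the list was 0.36. The called share of this list, 54.2%, was also near the 59.7% of all genes.

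The 3 chains of C1q, the recognition molecule of the classical pathway, gave different calls. C1q is built from chains encoded by C1qa, C1qb and C1qc, which are adjacent genes on chromosome 4. C1qa was at 81.9, 76.8, 87.3 and 88.7 in young and at 119, 87.5, 144, 149 and 128 in old replicates, with a log2 difference of 0.56 (SE 0.16, limma adjusted p = 0.0049). C1qc was at 75.3, 64.1, 61.8 and 67.0 in young and at 44.8, 44.8, 53.7, 27.1 and 24.4 in old replicates, with a log2 difference of -0.83 (SE 0.22, limma adjusted p = 0.0039). C1qa rose with old replicate 2 inside the young range, and C1qc fell with no overlap. C1qb did not pass the test, at 93.1 ± 22.4 in young and 106 ± 12.9 in old libraries (SD, n = 4 and 5; log2 difference 0.21). With a transcript length trend removed from each library, C1qc was at -0.47 and no longer called (limma adjusted p = 0.080), C1qb was at 0.59 and called higher (0.0034), and C1qa was at 0.95 (8.4e-05). Without 1 library, C1qb ran from 0.11 (without young replicate 3) to 0.36 (without young replicate 1), neither of them called. C1rl, a protease related to C1r, fell from 207 ± 19.4 to 107 ± 21.1 (log2 difference -0.96, limma adjusted p = 2.1e-05). C2, which C1s also cleaves, was at 71.7 ± 12.4 and 92.5 ± 22.0 (log2 difference 0.35) and did not pass, but was called without old replicate 5 (0.47, limma adjusted p = 0.0323) and, with all libraries kept, with mitochondrial genes left out (0.49, limma adjusted p = 0.0310) or a length trend removed (0.52, limma adjusted p = 0.0233). It was at 0.22 without young replicate 4.

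Of 9 genes listed under the lectin pathway, 4 were in the table and 3 were tested. These 3 rose in the main test, where 29.2% of all genes did. Mbl1, a mannose-binding lectin, was at 18.5 to 20.5 in young and 36.5 to 63.6 in old libraries, with no overlap (log2 difference 1.27, SE 0.21, limma adjusted p = 5.1e-05). Colec12, listed with them but a membrane scavenger receptor of the collectin family and not a soluble recognition molecule, rose from 28.5 ± 1.77 to 48.1 ± 3.91 (log2 difference 0.73). Colec11, a soluble collectin, rose from 6.24 ± 3.06 to 15.2 ± 5.997 (log2 difference 1.15), on as few as 4 reads, and its ages overlapped. Its call was lost without young replicate 2 (0.99, limma adjusted p = 0.0569), and that of Colec12 with a length trend removed (0.32, limma adjusted p = 0.140). Masp2, the lectin pathway protease, was in the table at 8.64 ± 3.95 in young and 13.5 ± 10.9 in old libraries, and was below the filter.

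Among the alternative pathway genes beside Cfb, neither Cfd nor Cfp passed the test. Cfd, the protease that cleaves factor B and a major secreted product of fat cells, was at 1.64, 447, 36.3 and 0.905 in young and at 153, 10.9, 285, 0.933 and 62.6 in old replicates. The spread within each age covered more than the difference between the ages (log2 difference 1.10, SE 1.36). Leaving out 1 library moved that difference from 0.047 (without young replicate 4) to 2.67 (without young replicate 2). The direction also depended on the scale. Cfd had a lower mean count in old (103) than in young (121) libraries, and was at -0.23 with edgeR and -0.24 with DESeq2. Its highest libraries, young replicate 2 and old replicate 3, were also those with the highest summed adipocyte markers, at 1024 and 914 normalised counts. Cfp, or properdin, which stabilises the convertase, was at 13.0 ± 2.69 and 15.3 ± 7.40 (log2 difference 0.10). Of the terminal pathway, C8a fell from 42.4 ± 5.77 to 28.3 ± 5.36 (log2 difference -0.58, limma adjusted p = 0.0243), a call lost without young replicate 1 (-0.49, limma adjusted p = 0.0920) or 2 (-0.58, limma adjusted p = 0.0505), and with mitochondrial genes left out (-0.44, limma adjusted p = 0.0779). C8g was at 58.6 ± 20.1 and 58.8 ± 11.4 (log2 difference 0.04).

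The soluble regulators Clu and Cpn1 rose, each with no overlap between the ages. Clu, or clusterin, which binds the terminal complex, rose from 1442 ± 61.1 to 1934 ± 158 (log2 difference 0.42, SE 0.09, limma adjusted p = 4.9e-04), and its difference was 0.69 with a length trend removed. Cpn1, the catalytic subunit of the carboxypeptidase that inactivates C3a and C5a, rose from 356 ± 57.4 to 496 ± 47.2 (log2 difference 0.49). Csmd1, listed with them, was at 4.83 ± 2.79 and 8.90 ± 5.29 and was below the filter.

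Of the 4 further membrane regulators tested, Cr1l passed in the main test. Cr1l encodes Crry, the broadly expressed rodent regulator of C3 convertases, and rose from 244 ± 15.0 to 319 ± 45.4 with no overlap (log2 difference 0.38, limma adjusted p = 0.0087). Cd46 was at 11.6 ± 3.40 and 9.28 ± 4.02 (log2 difference -0.38), Susd4 at 30.1 ± 3.81 and 21.5 ± 8.45 (-0.55), and Thbd at 32.5 ± 6.83 and 44.0 ± 11.01 (0.41). Without old replicate 2, Susd4 (-0.72, limma adjusted p = 0.0337) and Thbd (0.56, limma adjusted p = 0.0327) were called, and without old replicate 5 Susd4 was at -0.34. Cd46 was at -0.06 without old replicate 4. Thbd was also called with mitochondrial genes left out and all libraries kept (0.55, limma adjusted p = 0.0459). Cr1l and Cd59a, both regulators on host membranes, were thus called in opposite directions.

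C3ar1, the receptor of C3a, was the called receptor that rose. It was at 20.5, 8.74, 11.8 and 13.6 in young and at 38.9, 21.9, 28.4, 38.2 and 38.2 in old replicates. The ages did not overlap, though old replicate 2 lay close to young replicate 1. The log2 difference was 1.25 (SE 0.28, limma adjusted p = 8.9e-04). C1qbp, which binds C1q but is known mainly as a mitochondrial matrix protein, fell from 796 ± 33.8 to 452 ± 68.9 (log2 difference -0.83). Itgax and Itgb2, the chains of complement receptor 4, had log2 differences of 0.72 (13.7 ± 6.16 and 23.7 ± 11.9) and -0.07 (11.5 ± 1.60 and 11.4 ± 3.95), and Cd93, once described as a C1q receptor, had 0.29 (107 ± 9.25 and 132 ± 13.9), none of which passed. Itgax was at 0.40 without young replicate 3 and was called without old replicate 3 (0.94, limma adjusted p = 0.0383), and Cd93 was called without old replicate 4 (0.33, limma adjusted p = 0.0486). With all libraries kept, Cd93 was called with mitochondrial genes left out (0.43, limma adjusted p = 0.0106) and among genes with a mean of 100 or more (0.29, limma adjusted p = 0.0491). With a length trend removed, Cd93 was at -0.028 (limma adjusted p = 0.866).

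**Figure D3:**
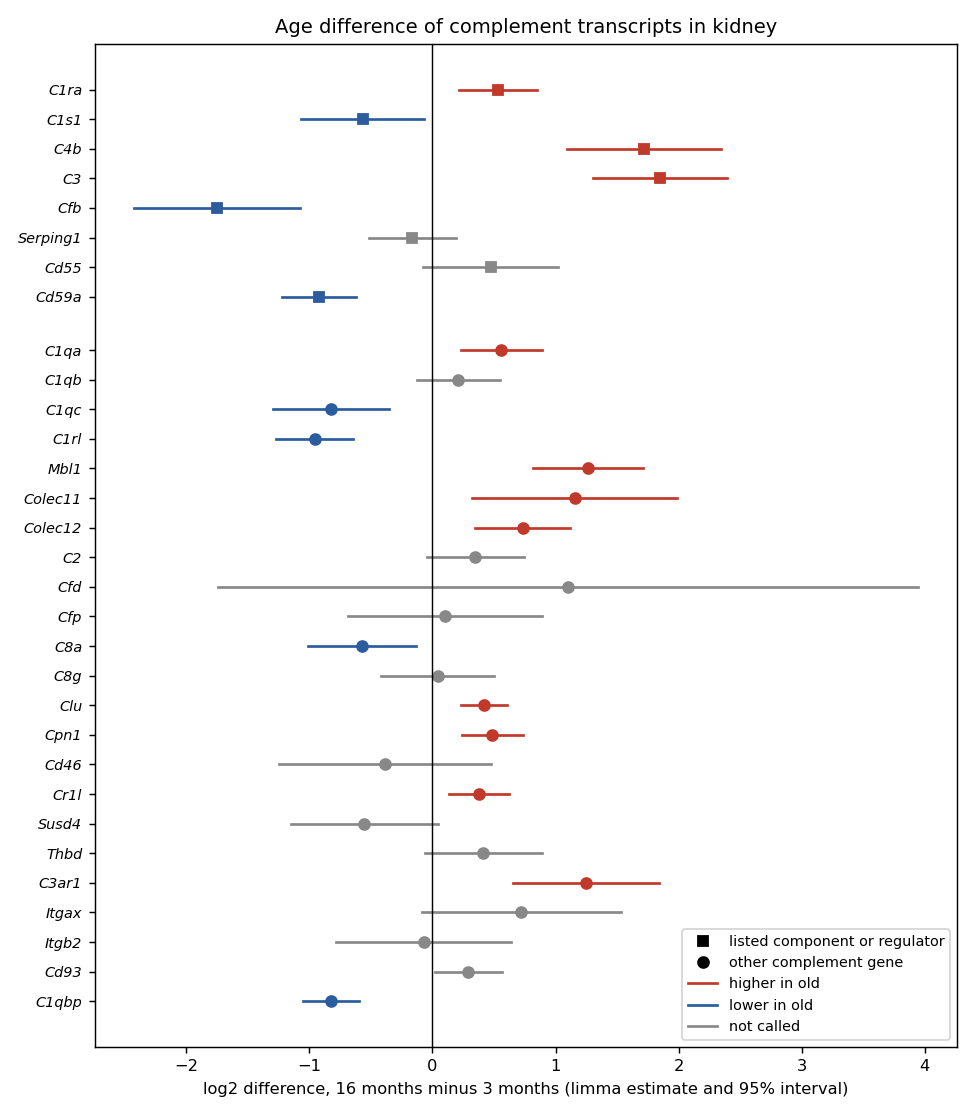
Log2 difference, 16 months minus 3 months (horizontal axis, limma estimate with its 95% interval), of the 8 listed complement transcripts (squares) and of the further complement genes named in the text (circles). Red marks genes called higher, blue genes called lower and grey genes not called, and the largest called differences are those of C3, C4b and Cfb.

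Genes of the signalling routes known to act on complement transcription were read as counts. Of 26 interleukin, interferon and tumour necrosis factor receptors, kinases and transcription factors, 10 rose, 5 fell and 11 did not pass, with a median log2 difference of 0.16. The called share of 57.7% was near the 59.7% of all genes. The largest differences among those called were falls of Tnfrsf1b, a tumour necrosis factor receptor (26.9 ± 2.49 to 6.21 ± 1.48, log2 difference -1.97), and of Socs3, a feedback inhibitor of cytokine signalling (21.4 ± 3.98 to 6.04 ± 4.45, -1.92). They were followed by rises of Il1r1, the interleukin-1 receptor (16.1 ± 4.53 to 57.1 ± 22.6, 1.70), and Irf9, a partner of STAT proteins in the interferon response (70.3 ± 4.36 to 174 ± 31.2, 1.28). In old libraries Tnfrsf1b was at 4.71 to 8.11 and Socs3 at 1.18 to 12.0 normalised counts. These are low counts, since 3 reads were 2.80 to 3.54 normalised counts in old libraries. Of 19 acute phase genes, 6 were in the table and 4 were tested. Fgb, a fibrinogen chain (log2 difference 1.05, 10.2 ± 3.52 to 22.7 ± 9.12), and Cp, or ceruloplasmin (0.40, 141 ± 23.7 to 187 ± 34.1), rose, and the other 2 did not pass.

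Markers of other cell types moved with some of these genes, and their counts stand beside the 29.2% of all genes that were called higher and the 30.5% called lower. Of 10 macrophage markers, which with C1q and C3ar1 are typical of tissue macrophages, 4 rose and 0 fell, and their sum was 528 to 569 in young and 544 to 782 in old libraries. Of the 6 B and plasma cell markers, Igkc and Jchain were in the table and both rose, and their sum was 225 to 668 in young and 780 to 2423 in old libraries. Old replicates 3 and 5, the highest for C3, also had the highest sums of these immunoglobulin markers, at 2423 and 2037. Of 5 hepatocyte markers, 2 rose and 1 fell, with sums of 668 to 1393 and 1414 to 2388. Apob rose from 54.2 ± 8.94 to 1211 ± 361 and Serpina1a from 61.7 ± 13.2 to 129 ± 43.6, Ttr fell from 747 ± 346 to 311 ± 131, and Alb (15.1 ± 6.29 and 27.4 ± 15.3) and Apoa1 (9.49 ± 2.07 and 9.79 ± 6.64) did not pass. The higher sum in old libraries thus came mostly from Apob. Of 5 injured tubule markers, Havcr1, Lcn2 and Krt20 had no row in the table, while Vcam1 and Sox9 rose, with a sum of 52.5 to 75.1 and 94.3 to 167. The part of any of these in the complement differences was not tested.

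The counts that follow also stand beside 29.2% of all genes called higher and 30.5% called lower. Endothelial markers rose for 4 of 6 genes, with a sum of 930 to 990.1 in young and 1235 to 1483 in old libraries. Of 6 fibroblast markers, 1 rose and 4 fell, with sums of 1563 to 1941 and 860.05 to 1483. Of 2 collecting duct markers, Aqp3 fell (496 ± 43.1 to 173 ± 38.4) and Aqp2 did not pass. Their sum was 1252 to 1895 in young and 497 to 2487 in old libraries. The highest was old replicate 3, also highest for C3 and lowest for Cfb, and any link was not tested. The 5 adipocyte markers in the table summed to 271 to 1024 in young and 58.8 to 914 in old libraries. Of the 3 tested, 1 fell and 0 rose. The fall was that of Fabp4 (490 ± 279 to 157 ± 151), the largest part of the sum in every library. Adipoq (11.1 ± 19.8 and 57.2 ± 78.6) and Cidec (7.53 ± 13.8 and 24.7 ± 32.0) had higher means in old libraries but did not pass. Plin1 (11.9 ± 20.6 and 33.2 ± 58.3) and Retn (5.24 ± 6.87 and 25.9 ± 35.7) also had higher means and were not tested. Plin1 was at 0 in young replicate 1 and old replicates 2 and 4. With young replicate 2 and old replicate 3 left out together, the log2 difference was 1.81 for C3, 1.91 for C4b, -1.49 for Cfb, -1.07 for Cd59a and 0.56 for C1ra, all called by limma, while C1s1 was at -0.45 (adjusted p = 0.136).

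**Figure D4:**
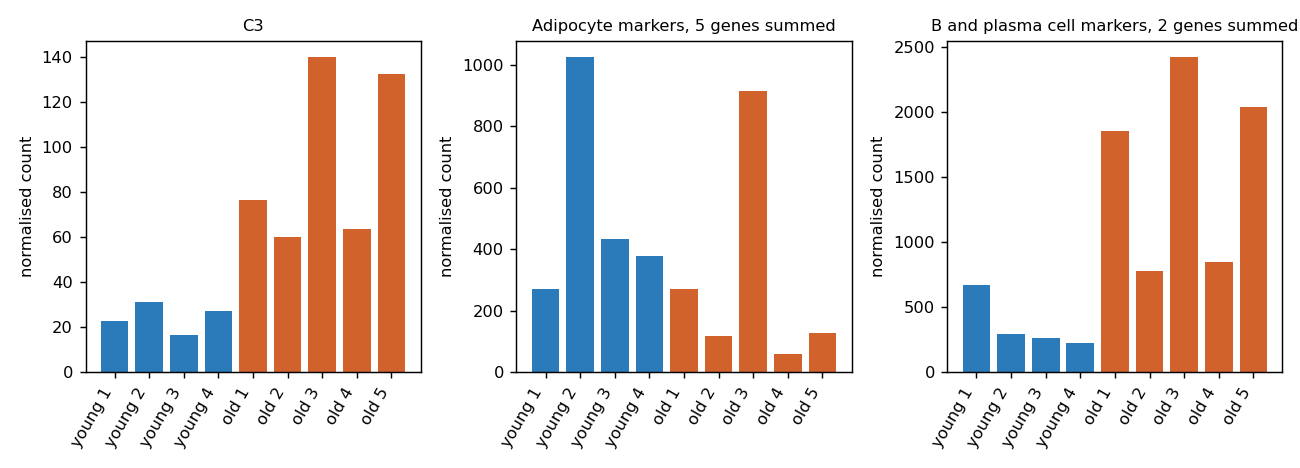
Normalised count (vertical axes, starting at 0) of C3, of 5 adipocyte markers summed and of the B and plasma cell markers Igkc and Jchain summed, in each of the 4 young (blue) and 5 old (orange) libraries. Adipocyte markers were highest in young replicate 2 (1024) and old replicate 3 (914), while C3 and the immunoglobulin markers were highest in old replicates 3 and 5.

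For each transcript, the tested gene with the nearest pattern over the 9 libraries was found as the smallest mean absolute difference between log2 profiles centred on their own means. C3 was nearest to Zfp729a, a zinc finger gene (0.19 on the log2 scale), C4b to Cplane1, a ciliogenesis gene (0.18), and Cfb to Lrrc29 (0.21). C1ra was nearest to Maco1 (0.04), C1s1 to Zfp651 (0.13) and Cd59a to Psmd8, a proteasome subunit (0.10). Serping1 was nearest to Ppp2r3d (0.09) and Cd55 to Gm45380 (0.11). None of these 8 genes was on the complement lists.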

How the data were processed

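Kidney RNA was sequenced from transcript ends (QuantSeq 3′) in 4 young and 5 old libraries. The authors checked reads with FastQC 0.11.7, aligned them to GRCm39 with TopHat2 2.0.10, Bowtie 1.0.0 and SAMtools 0.1.19, and counted them by strand with HTSeq 0.6.1 on GENCODE vM26, per the submitters' processing notes and the paper's methods. The table deposited by the authors holds a signal on the count scale, normalised with DESeq or DESeq2 (the sources differ). Each value was a whole multiple of 1 read (100% of values, tolerance 0.1 read), from which reads were recovered. The lowest gene mean was 4.49, so low genes had been left out before deposition.

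Genes that reached 10 normalised counts in 4 or more libraries entered the test, made with limma 3.58.1 (eBayes with trend, R 4.3.3) on log2(value + 1), old against young, without covariates, with Benjamini-Hochberg adjustment over all genes tested. The test was checked on simulated data. Alternatives were pseudocounts of 0.1 and 5, no filter, a mean of at least 100, TMM factors, table totals, mitochondrial genes left out, robust eBayes, edgeR 4.0.16 (quasi-likelihood) and DESeq2 1.42.0 on whole reads, a length trend removed, and each library left out. Leaving out young replicate 2 and old replicate 3 together was added after seeing the data. The members and lists were chosen with earlier results of these data known. Named genes were the listed complement genes in the table (1 is not reported here), the 4 largest called differences of the signalling list, the called acute phase genes and the nearest gene in pattern to each member; cell type markers came from a list and those named were picked after their values were seen. Positions came from GENCODE vM21 on GRCm38, matched by symbol for 98.3% of genes, which is not the authors' build. Depth limits single genes: a count of 3 reads, the floor, was 2.46 to 3.54 normalised counts, which covers counting error only, since the reads carry no molecular identifiers that the analysis could use.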

Additional observations from a re-analysis of the deposited data

Results flagged for a closer look

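A library that stood far from the rest of its group was sought among the complement genes, the marker sums and the read totals, in 94 groups of 4 or 5 libraries, of which chance alone would flag about 4.7 (1 in 20), and 2 were found. Cfp was at 9.01 normalised counts in young replicate 1, against 13.6 to 14.7 in the other young libraries, and its gap to the nearest was 0.835 of the range on the log2 scale. The summed fibroblast markers were at 1941 in young replicate 4, against 1563 to 1617 in the other young libraries, with a gap of 0.845 of the range.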

How the results depend on the processing

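The calls of C1ra, C4b, C3, Cfb and Cd59a kept their direction and stayed past the threshold in every alternative that tested them, and only C1s1 lost its call, so that 5 or 6 of the 8 listed genes were called. Keeping genes with a mean of 100 or more left 4101 of 5655 genes called, with 1 of 2 listed genes tested and 8 of 10 further complement genes; fewer genes were tested. Leaving out mitochondrial genes and rescaling shifted the median of all genes by 0.14 and took the share of calls that were higher from 48.9 to 58.5%. Among genes that were not called, the log2 difference changed sign for Serping1 (0.11) and Cd93 (-0.028) with a length trend removed, for Cfd with edgeR (-0.23) and DESeq2 (-0.24), for C8g scaled to the table total (-0.0081), and for Itgb2 with mitochondrial genes left out (0.057), a length trend removed (0.052) or young replicate 2 and old replicate 3 left out (0.19). Leaving out 1 library at a time gave -0.10 to 0.40 for Cfp, -0.15 to 0.24 for C8g and -0.22 to 0.11 for Itgb2. The cause of these shifts was not tested. No paired analysis was made, because the labels pair no young library with an old one and the groups differ in size (4 and 5). Among the 8 listed genes depth limits C4b most, with 6 to 20 reads in young libraries.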
